A study of Populus alba x Populus glandulosa with 18 samples.

Results

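The genes of the A and G subgenomes of 84K poplar were compared in roots, by expression level and by change in 5 transgenic lines against wild type. Members were the IDs of the deposited table that carry a chromosome number with an A or a G, and that had an FPKM of at least 1 in at least 3 of the 18 libraries. These were 38211 of the 71159 IDs listed, 19319 of A and 18892 of G. FPKM is a level per transcript length and per mapped fragments of the library, so levels of different genes can be set side by side.

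84K is a hybrid clone, labelled Populus alba x Populus glandulosa. A hybrid of this kind carries 1 chromosome set from each parent species, so most genes are present as an allele from either side, on chromosomes that share a number. In hybrids and allopolyploids, the expression of the parental copies is known to be often similar over the whole genome while single genes or segments favour 1 copy. Reads that match both copies cannot be told apart, and no source used here says how such reads were assigned. The letters A and G are used in published assemblies of 84K for the sets from P. alba and P. glandulosa; the table itself does not state this and does not pair A IDs with G IDs.

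RNA was taken from root tissue, with 3 libraries per group. The groups were bhlh58-KO (knockout of bHLH58, line 6), bhlh151-KO (knockout of bHLH151, line 40), bhlh58/151-KO (knockout of both, line 32), bHLH58-OE (overexpression of bHLH58, line 20), bHLH151-OE (overexpression of bHLH151, line 17) and WT, the 84K wild type. Both genes are named as basic helix-loop-helix transcription factors, which bind DNA as dimers. Each genotype is 1 line, so genotype and line cannot be told apart, and the labels do not say how the knockouts were made or which promoter drives overexpression. Nor do they say that replicate libraries are separate plants, so p-values measure only the spread among the libraries at hand. The IDs carry no gene names here, so neither the targeted genes nor root marker genes were checked. Depth is unknown. Within groups, libraries correlated at 0.981 to 0.987 over genes on the log2 scale, and no library pair was identical.

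The subgenomes were listed and expressed to a nearly equal extent. Of 32963 A IDs, 58.61% were members and 16.72% were at 0 in every library. Of 33165 G IDs, 56.96% were members and 17.27% were at 0 in every library. Just inside the threshold, with 1 FPKM reached in exactly 3 libraries, lay 297 A and 275 G IDs with median levels of 0.702 and 0.698 FPKM in that order. Just outside, with 2 libraries, lay 364 A and 375 G IDs with medians of 0.618 and 0.617 FPKM. All 18 libraries reached 1 FPKM for 15352 A members (79.47%) and 14931 G members (79.03%).

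The distribution of levels was also alike. The median level, over the mean of each member across libraries, was 4.80 FPKM for A and 4.71 FPKM for G, with quartiles of 2.22 and 10.8 FPKM for A and 2.18 and 10.6 FPKM for G. At least 10 FPKM was reached by 27.07% of A and 26.57% of G members. At least 100 FPKM was reached by 328 A members (1.70%) and 343 G members (1.82%), so the highest class was slightly larger in G. The 100 highest members held 14.5% of all A FPKM and 15.1% of all G FPKM. The median SD between libraries of a group, on the log2(FPKM + 1) scale used for all changes, was 0.14 for A and 0.15 for G.

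The median of A lay above that of G in each of the 18 libraries, by 0.00422 to 0.0981 FPKM. The difference was 0.0671 ± 0.0237 FPKM in bhlh58-KO, 0.0414 ± 0.00695 in bhlh151-KO, 0.0859 ± 0.0176 in bhlh58/151-KO, 0.0766 ± 0.00554 in bHLH58-OE, 0.0141 ± 0.0121 in bHLH151-OE and 0.0673 ± 0.0263 in WT (SD, n = 3 each). It was smallest in bHLH151-OE, whose 3 libraries (0.00422 to 0.0275 FPKM) lay below the 3 of WT (0.0497 to 0.0975 FPKM). An exact permutation test of 3 libraries against 3 cannot give a p below 0.1. Most of the difference came with chromosome number 12, described further on. Averaged over all libraries it was 0.0587 FPKM with all numbers, 0.00290 FPKM without number 12, 0.0789 FPKM without number 11 and 0.0207 FPKM without both.

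On most chromosome numbers the A and the G chromosome had nearly the same expressed share and level. The share of listed IDs that were members ran from 50.28% (19A) to 63.1% (9A) over the 19 A chromosomes. Over the G chromosomes it ran from 50.11% (17G) to 62.8% (2G), apart from 11G with 24.26%. Leaving out numbers 11 and 12, the A and G shares of a number differed by at most 1.90 percentage points (number 13). Across those 17 numbers, A and G correlated at a Pearson r of 0.969 for the share of members and 0.822 for the median level. With all 19 numbers r was 0.699 and 0.476. These are descriptions: the points share their libraries, and chromosomes of 1 number carry the same gene families. Chromosomes 9 and 10 had the highest G medians (5.46 FPKM on 9G and 5.21 on 10G, against 5.17 on 9A and 4.96 on 10A).

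**Figure D1:**
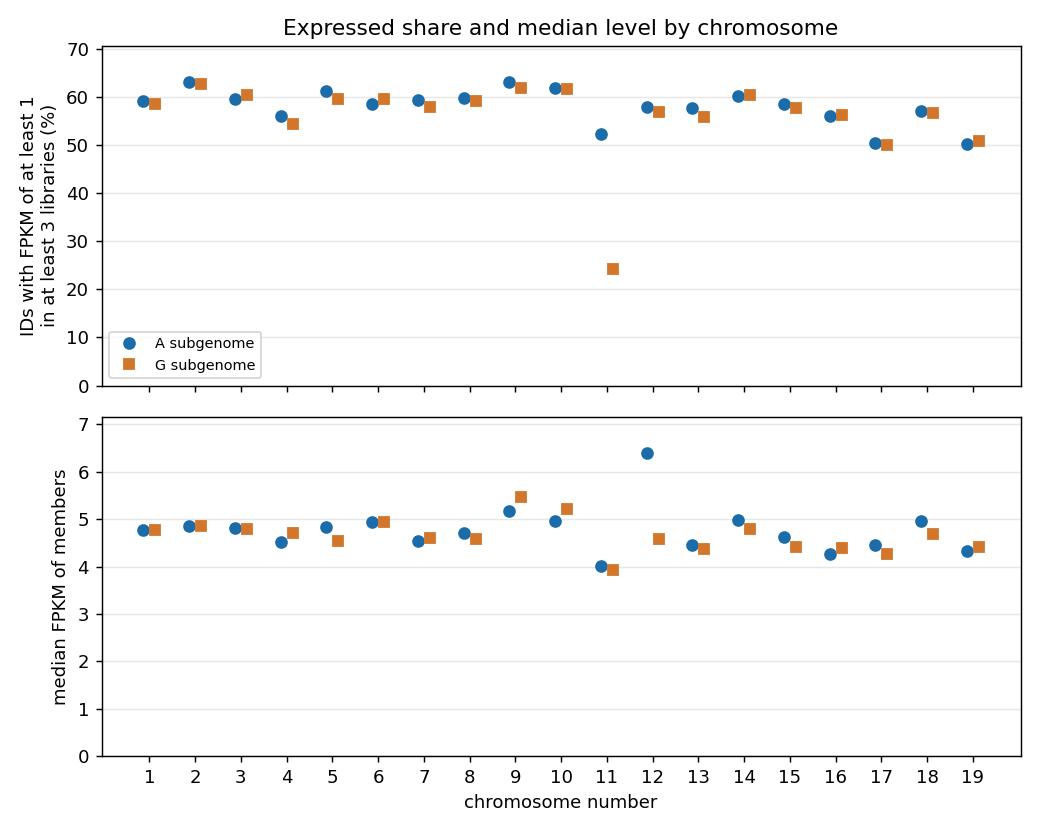
Upper panel, percent of listed IDs that were members; lower panel, median FPKM of the members; both by chromosome number, with A as circles and G as squares. Chromosome 11G stands at 24.26% against 52.44% for 11A, and 12A at a median of 6.39 FPKM against 4.58 FPKM for 12G, while the other numbers lie close together.

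Chromosome 11G was nearly silent over its first 799 listed IDs. The digits at the end of the IDs rise in steps of 100 along each chromosome and are read here as gene order, which the sources used here do not state. From PAxG11Gg0000100 to PAxG11Gg0089900, 799 IDs were listed and 24 (3.00%) were members. In this stretch 410 IDs (51.3%) were at 0 in every library. The stretch of 11A with the same ID numbers, PAxG11Ag0000100 to PAxG11Ag0090000, held 810 IDs, 404 members (49.9%) and 191 IDs at 0 (23.6%). The mean level was 0.0842 FPKM per listed ID on 11G and 4.89 FPKM on 11A. The limits of the stretches on chromosomes 8, 11 and 12 were set after values were seen, so they are described without a test.

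The rest of 11G was expressed like 11A. From PAxG11Gg0090300 on, 594 IDs held 314 members (52.9%) at 5.18 FPKM per listed ID. The matching stretch of 11A, from PAxG11Ag0090100 on, held 603 IDs and 337 members (55.9%) at 5.36 FPKM per listed ID. The change of level was abrupt: in blocks of 100 ID numbers, the first 9 blocks of 11G held 0 to 7 members each. Of 716 such blocks over all chromosomes with at least 50 listed IDs, the median had 59.1% members and the lowest 5 in 100 had under 41.3%. Only 10 blocks had under 10% members, and 9 of them were these of 11G.

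The near-silence was present in every group, WT included. The stretch of 11G had 0.0715 ± 0.00186 FPKM per listed ID in bhlh58-KO, 0.0768 ± 0.000882 in bhlh151-KO, 0.0727 ± 0.00351 in bhlh58/151-KO, 0.0799 ± 0.00562 in bHLH58-OE, 0.120 ± 0.0135 in bHLH151-OE and 0.0843 ± 0.00696 in WT (SD, n = 3 each). Over the 18 libraries it ran from 0.0688 to 0.133 FPKM. The value of bHLH151-OE includes PAxG11Gg0025800, described below, which averaged 33.6 FPKM there and 6.72 FPKM in WT. The share of IDs of the stretch at 1 FPKM or more was 1.84% in both bHLH151-OE and WT. The stretch of 11A had 4.78 ± 0.00818 FPKM per listed ID in bhlh58-KO, 5.31 ± 0.0698 in bhlh151-KO, 5.03 ± 0.106 in bhlh58/151-KO, 4.72 ± 0.0598 in bHLH58-OE, 4.91 ± 0.0390 in bHLH151-OE and 4.60 ± 0.0156 in WT. Whether reads of the 11G copies were assigned to 11A was not tested.

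Most of the 24 members in the silent stretch were themselves low: 16 averaged under 2 FPKM, and 7 IDs reached 5 FPKM in any library. The highest was PAxG11Gg0025800, with 29.0, 34.6 and 37.3 FPKM in bHLH151-OE, against 7.98, 5.69 and 6.48 FPKM in WT (log2 fold change 2.17, SE 0.13, limma adjusted p = 3.52e-10). Every bHLH151-OE library lay above every WT library. In bHLH58-OE it had 0.106, 0.0656 and 0.0777 FPKM, all below WT (log2 fold change -2.82, SE 0.13, limma adjusted p = 5.36e-11). In the knockouts it was listed at 0.0291, 0 and 0 FPKM in bhlh58-KO, at 0.180, 0.0189 and 0 FPKM in bhlh151-KO, and at 0, 0.174 and 0 FPKM in bhlh58/151-KO. It was called lower in each of these lines (log2 fold change -2.92, -2.85 and -2.86, limma adjusted p = 3.02e-11, 9.38e-13 and 4.50e-11, in that order). It was thus close to 0 in 4 lines and high in the fifth. In bHLH151-OE it was the only called member of the 24 in the stretch (4.17%), against 32.0% of all tested IDs. Only 1 other ID of the stretch was called in any line, PAxG11Gg0011000 in bhlh151-KO, an ID outside the naming rule. Its mean was 2.82 FPKM in bhlh151-KO, against 0.960 FPKM in WT (log2 fold change 0.99, limma adjusted p = 0.00678).

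A second, shorter G stretch was silent at the end of chromosome 8G. The 46 IDs from PAxG08Gg0202700 to PAxG08Gg0213300 held 0 members, and 36 of them (78.3%) were at 0 in every library. The mean was 0.0363 FPKM per listed ID. The last 50 IDs of 8A, from PAxG08Ag0195100, held 24 members (48.0%) at 6.88 FPKM per listed ID. These stretches of 8G and 8A both end their chromosome in ID order, but no source used here shows that they hold the same genes. The remaining block under 10% members was that of ID numbers 2001 to 2100 on 8G.

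Chromosome 12 differed in the other way: the share of members was alike, and the level of the A copy was higher. The median was 6.39 FPKM on 12A and 4.58 FPKM on 12G, against 3.93 to 5.46 FPKM on all other chromosomes. The difference lay past ID number 600, that is from PAxG12Ag0060100 and PAxG12Gg0060400 to the ends. There, 12A had 406 members with a median of 8.29 FPKM and 12G had 394 members with a median of 4.72 FPKM. Before that point the medians were 4.63 FPKM over 286 members on 12A and 4.54 FPKM over 285 members on 12G. Per listed ID, the far stretch had 12.3 FPKM on 12A and 6.55 FPKM on 12G, while 61.6% and 60.0% of its IDs were members in that order.

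This held in all libraries. The median of the 12A stretch ran from 7.26 to 8.90 FPKM over the 18 libraries and that of the 12G stretch from 4.22 to 4.76 FPKM, so the ranges did not overlap. Median levels of the 12A stretch were 8.22 ± 0.354 FPKM in bhlh58-KO, 7.48 ± 0.199 in bhlh151-KO, 7.87 ± 0.203 in bhlh58/151-KO, 8.64 ± 0.260 in bHLH58-OE, 7.82 ± 0.0153 in bHLH151-OE and 8.77 ± 0.0236 in WT (SD, n = 3 each). The 12G medians were 4.63 ± 0.0508, 4.44 ± 0.267, 4.61 ± 0.193, 4.63 ± 0.0279, 4.57 ± 0.144 and 4.63 ± 0.133 FPKM in the same order of groups. The difference was thus present in WT, which had the highest 12A median. The total per listed ID moved little between groups, from 12.1 FPKM (bhlh58-KO, WT) to 12.5 FPKM (bhlh151-KO, bHLH151-OE) on 12A.

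No other chromosome had a comparable run among the parts that could be compared. Each number was cut into 10 equal parts of its ID order, and 179 of 190 parts had at least 20 members on both sides. Left out were parts of numbers 11, 14 and 17, among them those in the silent stretch of 11G. The log2 ratio of the A median to the G median lay between -0.29 and 0.55 for the middle 90 in 100 of the 179 parts. It exceeded 0.5 in 11 parts, of which 5 were on number 12 and reached 1.04. It was under -0.5 in 2 parts, 1 on number 19 (-0.88) and 1 on number 16 (-0.63). The largest ratio off number 12 was 0.98, in the last part of number 8, over 85 A and 33 G members. The silent end of 8G lies in that part but holds 0 members, so it does not enter the ratio.

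**Figure D2:**
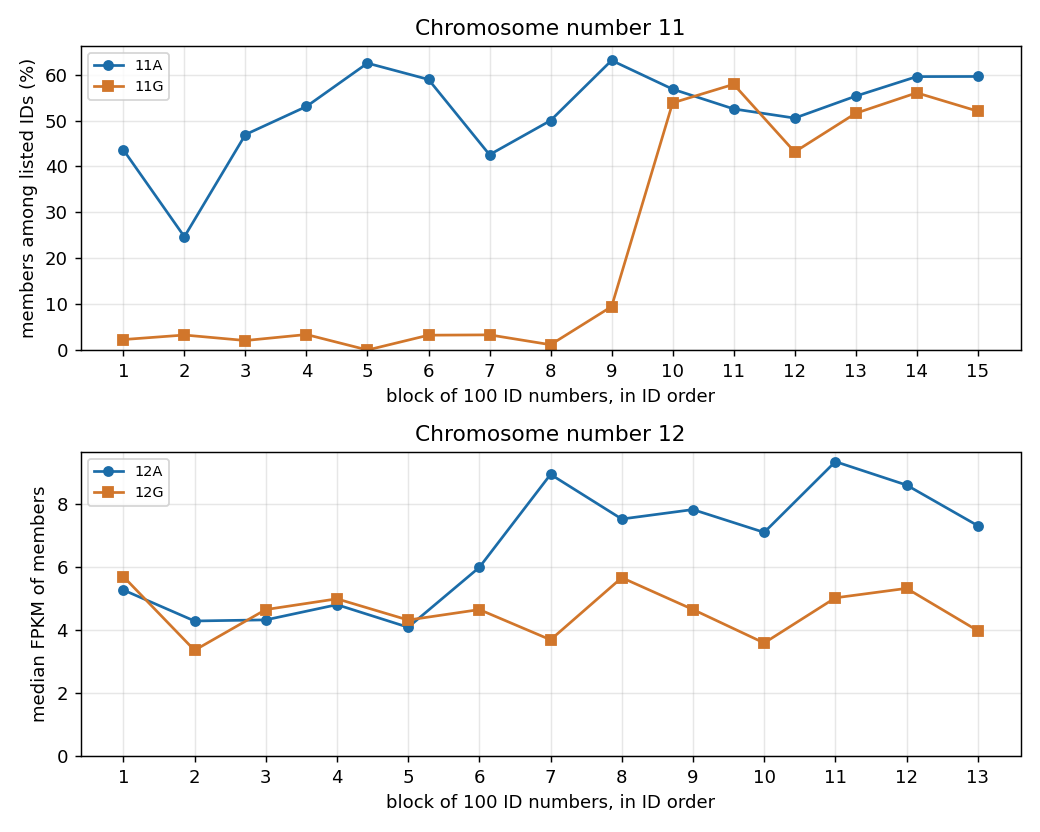
Values along the chromosomes in blocks of 100 ID numbers, A as blue circles and G as orange squares; blocks with under 50 listed IDs are left out. Upper panel, percent of listed IDs that were members on 11A and 11G, with 11G at 0 to 9.46% in its first 9 blocks; lower panel, median FPKM of the members on 12A and 12G, which part in the later blocks.

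The summed FPKM was split almost evenly between the subgenomes. A members supplied 50.679 ± 0.024% of A plus G FPKM in bhlh58-KO, 50.827 ± 0.067% in bhlh151-KO, 50.642 ± 0.089% in bhlh58/151-KO, 50.499 ± 0.028% in bHLH58-OE, 50.693 ± 0.023% in bHLH151-OE and 50.502 ± 0.027% in WT (SD, n = 3 each). All libraries of bhlh58-KO, bhlh151-KO, bhlh58/151-KO and bHLH151-OE lay above the 3 of WT (50.477 to 50.53%), and those of bHLH58-OE overlapped with them. The shifts against WT were 0.177, 0.325, 0.140 and 0.191 percentage points in the first 4, and -0.00241 in bHLH58-OE.

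The excess of A was gone without chromosome numbers 11 and 12, which favour A and were chosen after the values were seen. Of all member FPKM, 11A supplied 1.461% and 11G 0.6339%, and 12A supplied 2.32% and 12G 1.458%. Numbers that favour G were kept, such as number 6 with 3.875% on 6A and 4.176% on 6G. Without numbers 11 and 12, A supplied 49.848 ± 0.014% in bhlh58-KO, 49.93 ± 0.057% in bhlh151-KO, 49.796 ± 0.095% in bhlh58/151-KO, 49.645 ± 0.021% in bHLH58-OE, 49.839 ± 0.024% in bHLH151-OE and 49.644 ± 0.031% in WT. Each library was then under 50%, the highest at 49.992%. The 4 lines still lay above WT in all libraries. The shifts did depend on the most abundant genes: without the 100 highest members of each subgenome they were 0.0689 points in bhlh58-KO, 0.173 in bhlh151-KO, 0.114 in bhlh58/151-KO, 0.0640 in bHLH58-OE and 0.136 in bHLH151-OE.

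**Figure D3:**
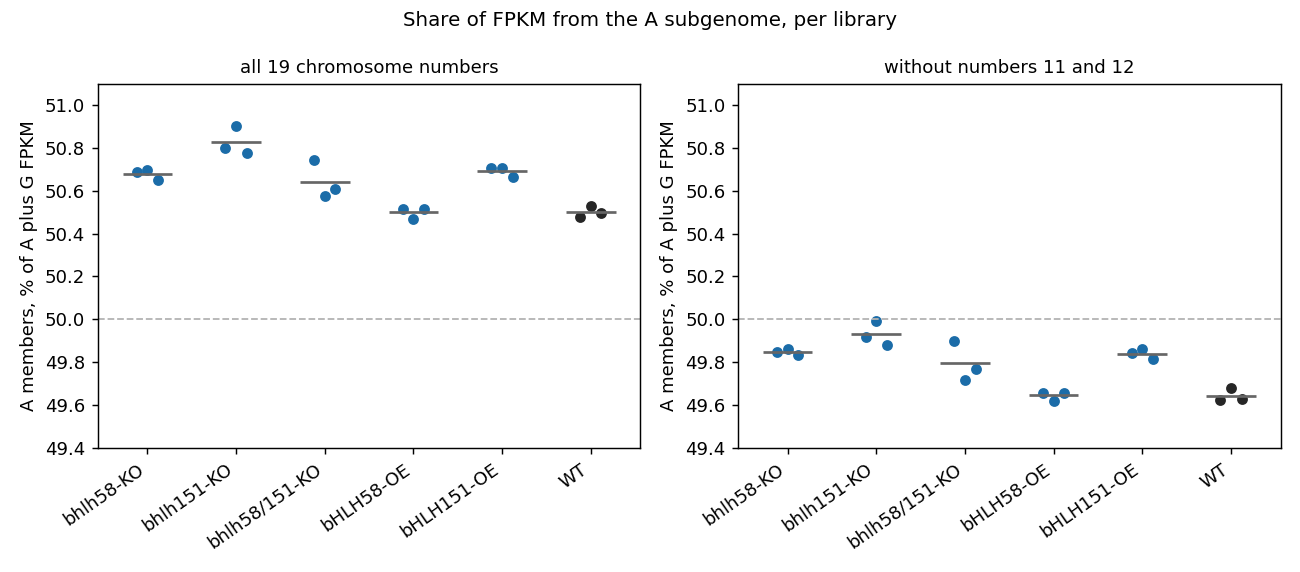
Percent of the summed A plus G FPKM supplied by A members, 1 point per library, with the group mean as a bar and the even split as a dashed line; the axis does not start at 0. Over all chromosomes each group lies above 50% (left), and without numbers 11 and 12 each library lies below it (right), with WT and bHLH58-OE lowest in both panels.

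The highest mean levels of either subgenome belonged to 2 IDs of chromosome number 8. PAxG08Ag0113600 had 1103, 1130 and 1071 FPKM in bhlh58-KO and 1067, 902.0 and 1129 FPKM in bhlh151-KO, against 1723, 1543 and 1803 FPKM in WT. PAxG08Gg0109500 had 1086, 1039 and 1048 FPKM in bhlh58-KO and 968.2, 850.2 and 1177 FPKM in bhlh151-KO, against 2059, 1767 and 2088 FPKM in WT. Both fell in both single knockouts, with all line libraries below all of WT. On the log2 scale the A member changed by -0.61 in bhlh58-KO (limma adjusted p = 0.00115) and by -0.71 in bhlh151-KO (limma adjusted p = 8.92e-05), each with an SE of 0.12. The G member changed by -0.89 in bhlh58-KO (limma adjusted p = 0.000428) and by -0.99 in bhlh151-KO (limma adjusted p = 4.48e-05), each with an SE of 0.14. In bhlh58/151-KO they fell by 0.50 (A, limma adjusted p = 0.00424) and 0.62 (G, limma adjusted p = 0.00509) on the log2 scale. The difference between the A and the G change was not tested.

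Chromosome 8G had the share of all member FPKM furthest below WT in 4 of the 5 lines, and PAxG08Gg0109500 made up much of this. It supplied 3.03 ± 0.0107% in bhlh58-KO, 2.95 ± 0.0249% in bhlh151-KO, 3.13 ± 0.00941% in bhlh58/151-KO, 3.16 ± 0.0602% in bHLH58-OE and 3.14 ± 0.0124% in bHLH151-OE, against 3.26 ± 0.0121% in WT (SD, n = 3 each). Without PAxG08Gg0109500 the rest of 8G supplied 2.81 ± 0.0104% in bhlh58-KO, 2.75 ± 0.0176% in bhlh151-KO, 2.87 ± 0.0318% in bhlh58/151-KO, 2.80 ± 0.0214% in bHLH58-OE and 2.85 ± 0.00644% in bHLH151-OE, against 2.85 ± 0.0302% in WT. Only bhlh151-KO then lay below WT in all libraries, and the other 4 lines overlapped with it. In bhlh58/151-KO chromosome 10G was further below, at 3.61 ± 0.0322% against 3.75 ± 0.0299% in WT. At the other end, 1A was furthest above WT in bhlh58/151-KO (by 0.148 points) and bHLH58-OE (by 0.0787 points). Chromosomes 2A and 2G lay above WT in all libraries of all 5 lines. Their shifts were 0.110 points for 2A and 0.0785 for 2G in bhlh58-KO, 0.0766 and 0.105 in bhlh58/151-KO, and 0.0670 and 0.0649 in bHLH58-OE. The shifts were larger in the other lines, where 2A supplied 4.18 ± 0.0242% in bhlh151-KO and 4.11 ± 0.00928% in bHLH151-OE, against 3.92 ± 0.0192% in WT. For 2G the shares were 4.14 ± 0.0207% in bhlh151-KO and 4.03 ± 0.0265% in bHLH151-OE, against 3.89 ± 0.0198% in WT. Lying outside WT was not particular to number 2. Chromosomes 8G, 10A and 10G lay below WT in all libraries of all 5 lines, and many others lay outside WT in some lines. These shares were not tested, and the comparisons use the same WT libraries.

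Changes against WT were then compared between subgenomes. Members with an adjusted p (Benjamini-Hochberg) under 0.05 were called, in a limma fit over all 40951 tested IDs, which also include IDs of new genes and organelles. In every line, A and G members were called about as often as each other. The share over all tested IDs is given beside them. As 38211 of the tested IDs are these members, that share must lie near their average.

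In bhlh58-KO, 4368 A members (22.61%) and 4194 G members (22.2%) were called, against 22.4% of all tested IDs. They split into 2570 A and 2377 G members that rose, and 1798 A and 1817 G members that fell. Of all tested IDs, 12.9% rose and 9.51% fell. A change of at least 2-fold was seen upward in 147 A (0.761%) and 140 G members (0.741%), against 0.759% of all tested IDs. Downward it was seen in 99 A (0.512%) and 82 G members (0.434%), against 0.481% of all tested IDs.

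The bhlh151-KO line had the most calls, 9315 A members (48.22%) and 9244 G members (48.93%), against 48.4% of all tested IDs. Of the called members 63.2% of A and 64.1% of G fell. Among all tested IDs 17.6% rose and 30.8% fell. This split depended on scaling: under median-of-ratios scaling 46.9% of called A and 47.8% of called G members fell, and under quantile normalization 52.2% and 52.7%. Median-of-ratios scaling moved the median log2 fold change of all tested IDs by 0.11, to -0.005 from the -0.11 of the values as deposited. Changes of at least 2-fold numbered 728 A (3.77%) and 670 G members (3.55%) upward, against 3.67% of all tested IDs. Downward they numbered 719 A (3.72%) and 725 G members (3.84%), against 3.76% of all tested IDs.

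In bhlh58/151-KO, 5567 A members (28.82%) and 5443 G members (28.81%) were called, against 28.8% of all tested IDs. Among all tested IDs 12.6% rose and 16.3% fell. Of the called members 56.1% of A and 56.5% of G fell, and under median-of-ratios scaling 42.1% and 42.7%. At 2-fold or more the direction was mainly upward. Of the members, 294 A (1.52%) and 276 G (1.46%) rose, against 1.52% of all tested IDs. Falls of that size were seen in 89 A (0.461%) and 86 G members (0.455%), against 0.459% of all tested IDs.

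Fewest calls were made in bHLH58-OE, with 1023 A members (5.295%) and 1010 G members (5.346%), against 5.37% of all tested IDs. Higher members numbered 636 for A (3.29%) and 614 for G (3.25%), against 3.3% of all tested IDs. Lower members numbered 387 for A (2.00%) and 396 for G (2.10%), against 2.07% of all tested IDs. At 2-fold or more, 40 A (0.207%) and 38 G members (0.201%) rose, against 0.227% of all tested IDs. Falls of that size were seen in 36 A (0.186%) and 32 G members (0.169%), against 0.186% of all tested IDs. These counts were sensitive to single libraries. Leaving out bHLH58-OE replicate 1 left 663 A and 655 G calls, and leaving out its replicate 3 left 635 A and 609 G calls. There were 641 A and 594 G calls without WT replicate 1, and 656 A and 644 G calls without WT replicate 3.

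In bHLH151-OE, 6179 A members (31.98%) and 6080 G members (32.18%) were called, against 32.0% of all tested IDs. Among all tested IDs 11.5% rose and 20.4% fell. Of the called members 63.8% of A and 64.4% of G fell. With median-of-ratios scaling 44.8% and 45.3% fell, and with quantile normalization 53.2% and 53.5%. At 2-fold or more, 254 A (1.315%) and 256 G members (1.355%) rose, against 1.35% of all tested IDs. Falls of that size were seen in 139 A (0.7195%) and 111 G members (0.5876%), against 0.662% of all tested IDs.

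**Figure D4:**
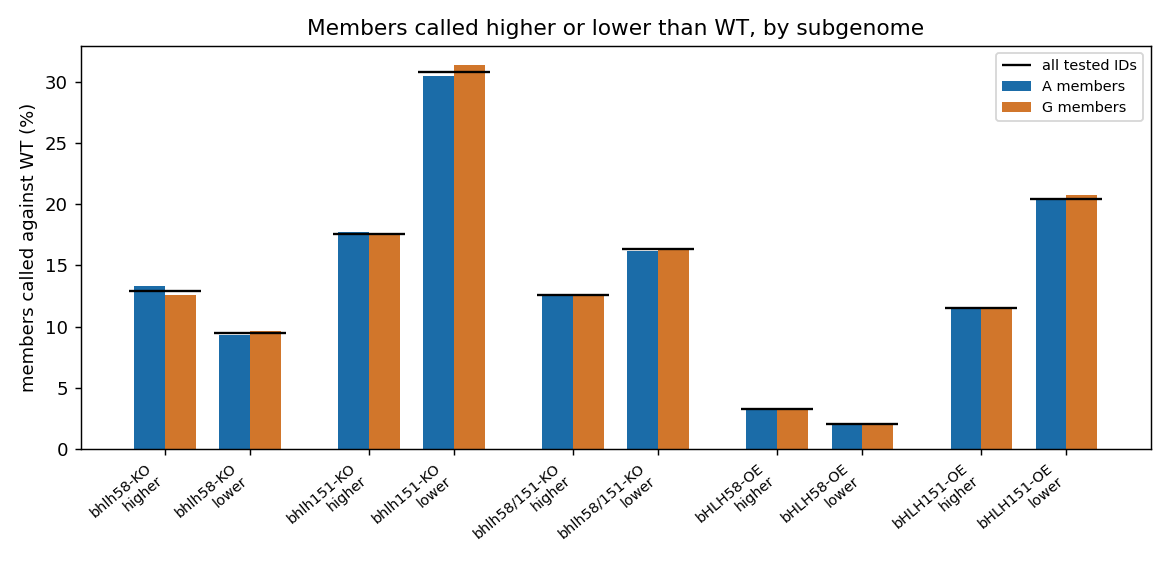
Percent of A members (blue bars) and of G members (orange bars) called higher or lower than WT in each line, with the percent of all tested IDs as a black line. The A and G bars of a pair lie close to each other, from 2.00% (A, lower in bHLH58-OE) to 31.37% (G, lower in bhlh151-KO). The line must lie near their average, because most tested IDs are A or G members.

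The sizes of change were alike too. The median log2 fold change was 0.01 for A and 0.01 for G in bhlh58-KO, -0.11 and -0.12 in bhlh151-KO, -0.06 and -0.06 in bhlh58/151-KO, 4.98e-05 and -0.0022 in bHLH58-OE, and -0.09 and -0.10 in bHLH151-OE. The largest difference of A minus G was 0.0058, in bHLH151-OE, where the 3 libraries taken one at a time against the WT mean gave 0.0037, 0.0025 and 0.00055. All 3 lie below 0.0058, because the median over genes of a mean change is not the mean of the library medians. The SD of log2 fold changes over members was 0.33 for A and 0.33 for G in bhlh58-KO, and 0.55 for A and 0.55 for G in bhlh151-KO. Among called members the median absolute log2 fold change was 0.54 on both sides in bhlh151-KO, and 0.46 for both in bhlh58-KO.

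Chromosomes differed slightly in their median change. In bhlh151-KO the medians of the 38 chromosomes ran from -0.16 (19G) to -0.08 (2G), around -0.11 for all members. Relative to all members, 2A was 0.032 and 2G 0.037 higher on the log2 scale, and 15A was 0.034 and 19G 0.045 lower. All 3 knockout libraries lay outside the range of the 3 WT libraries on each of these 4 chromosomes. This did not set them apart, as 10 of the 38 chromosomes lay above and 13 below WT in this way. In bHLH151-OE 2A and 2G were again highest, 0.023 and 0.027 above all members, and 15A lowest, 0.035 below. Both of these comparisons use the same 3 WT libraries. In bhlh58/151-KO 13A was lowest, 0.037 below all members, with 13G 0.017 below.

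The spread of the chromosome medians is not set against that over genes, as medians over many genes vary less by construction. Its SD was 0.0125 in bhlh58-KO, 0.0193 in bhlh151-KO, 0.0111 in bhlh58/151-KO, 0.00938 in bHLH58-OE and 0.0144 in bHLH151-OE, on the log2 scale. Over the 19 numbers, the A and the G median correlated at a Pearson r of 0.54, 0.70, 0.75, 0.57 and 0.56 in the same order of lines. These points share libraries, and the assignment of reads that fit both copies was not tested. The percent of members called ran from 45.48% (13A) to 50.66% (6G) in bhlh151-KO and from 19.13% (15G) to 25.35% (9G) in bhlh58-KO.

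**Figure D5:**
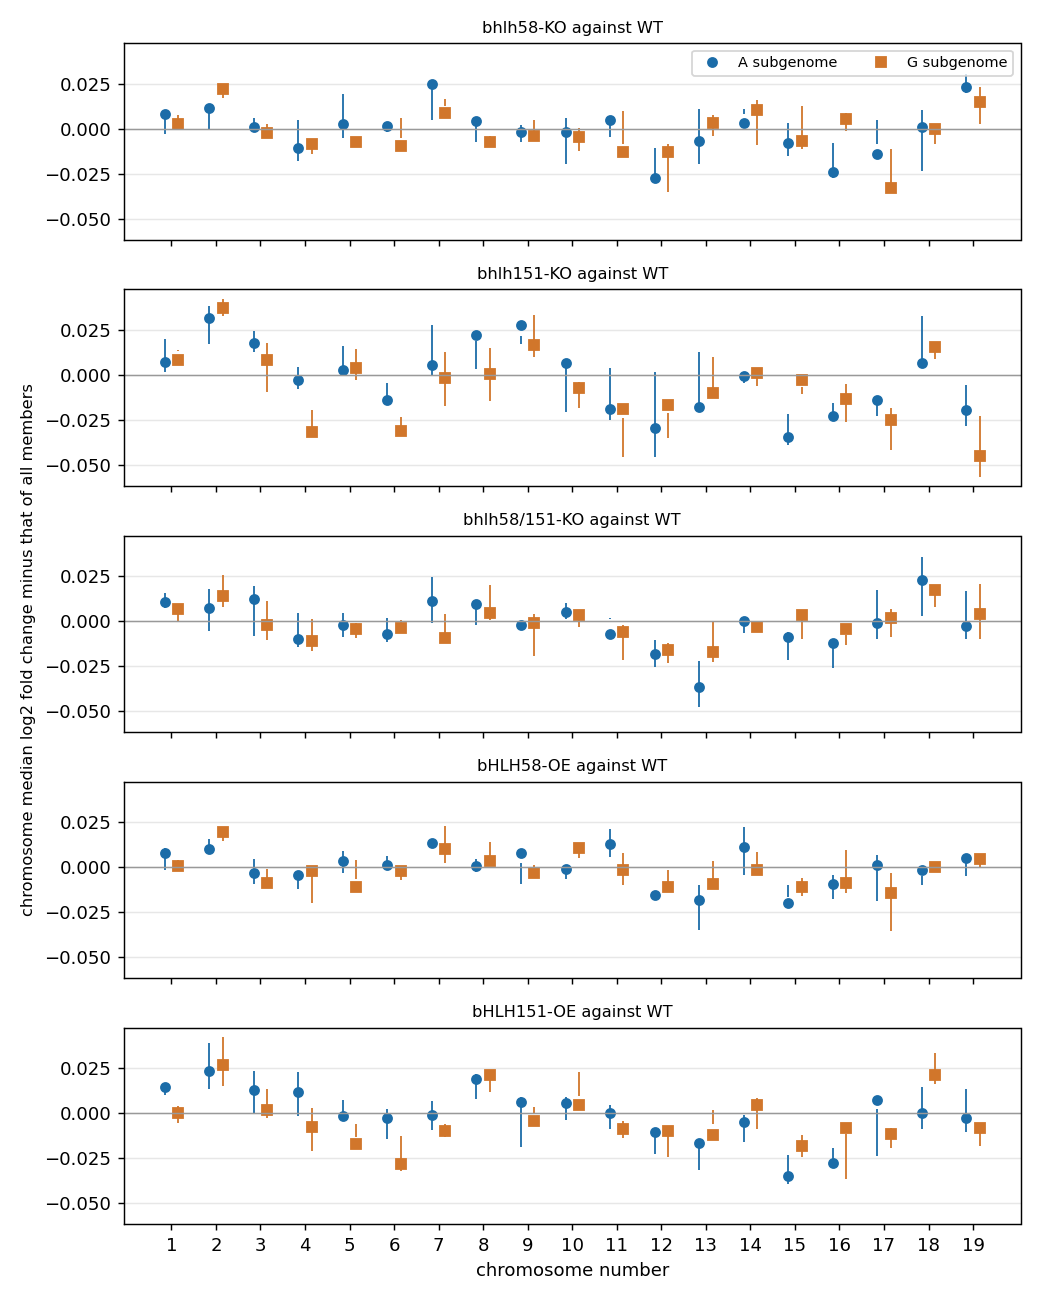
Median log2 fold change of each chromosome minus that of all members, by chromosome number, 1 panel per line against WT, with A as circles and G as squares. Vertical lines give the range of the 3 line libraries set 1 by 1 against the WT mean; number 2 lies highest in bhlh151-KO and bHLH151-OE on both subgenomes. A point can lie outside its line, because the median over genes of a mean change is not the mean of the library medians.

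Changes of at least 2-fold were less evenly spread. In bhlh151-KO 11G had the highest share, 9.47% of its members, and 17A the lowest, 6.16%, against 7.43% of all tested IDs. In bhlh58/151-KO the highest share was on 11A, 4.59%, with 28 members higher and 6 lower, against 1.98% of all tested IDs. Chromosome 11A also led in bHLH151-OE with 4.05%, 20 higher and 10 lower, against 2.01% of all tested IDs. In bhlh58-KO both chromosomes of number 13 led, 13G with 2.24% and 13A with 2.23%, against 1.24% of all tested IDs. In bHLH58-OE 16A led with 1.42%, 2 higher and 8 lower, against 0.413% of all tested IDs, counts too small to rank chromosomes.

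Single IDs were taken by rule. In each line these were the A member and the G member with the largest rise and the largest fall, among called members that did not overlap with WT, averaged at least 5 FPKM in the higher group and had no library at 0 in the lower group. PAxG11Gg0025800, at 0 in some knockout libraries, is outside the rule for those lines. On numbers 6 and 13 they were neighbours in ID number on chromosomes of 1 number, though the table does not say that they are alleles.

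Such a pair on number 6 was named for rises in all 3 knockouts. PAxG06Ag0058500 had 32.9, 33.6 and 67.3 FPKM in bhlh58-KO, 43.7, 66.0 and 63.7 FPKM in bhlh151-KO and 69.6, 59.4 and 38.6 FPKM in bhlh58/151-KO, against 5.11, 2.53 and 3.08 FPKM in WT. PAxG06Gg0057900 had 49.0, 47.3 and 96.6 FPKM in bhlh58-KO, 59.5, 79.9 and 70.7 FPKM in bhlh151-KO and 93.9, 67.2 and 50.5 FPKM in bhlh58/151-KO, against 7.91, 2.82 and 4.60 FPKM in WT. In each of these lines the library highest for the A member was also highest for the G member. In the order bhlh58-KO, bhlh151-KO, bhlh58/151-KO, the A member rose by 3.28, 3.70 and 3.64 on the log2 scale (limma adjusted p = 9.71e-06, 4.03e-07 and 2.55e-06), with an SE of 0.33. The G member rose by 3.42, 3.62 and 3.59 (limma adjusted p = 0.000115, 1.56e-05 and 5.55e-05), with an SE of 0.44. Both also rose in bHLH151-OE, the A member by 2.22 (limma adjusted p = 0.000152) and the G member by 2.20 (limma adjusted p = 0.00196). In bHLH58-OE no call was made for either (limma adjusted p = 0.409 for A, 0.865 for G). The G member stood above the A member in mean level in every group.

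A pair on number 13 was named for falls in bhlh58-KO. PAxG13Ag0088600 had 5.02, 7.31 and 6.19 FPKM in bhlh58-KO, against 79.3, 85.5 and 106.9 FPKM in WT (log2 fold change -3.68, SE 0.15, limma adjusted p = 3.47e-11). PAxG13Gg0089100 had 4.36, 4.01 and 5.03 FPKM in bhlh58-KO, against 35.8, 33.1 and 36.3 FPKM in WT (log2 fold change -2.73, SE 0.18, limma adjusted p = 1.70e-08). In WT the A member was thus at 90.5 ± 14.5 FPKM and the G member at 35.04 ± 1.75 FPKM, while in bhlh58-KO they were at 6.17 ± 1.15 and 4.46 ± 0.519 FPKM (SD, n = 3 each). Both also fell in bhlh151-KO (-1.76 for A and -1.57 for G, limma adjusted p = 2.51e-08 and 1.01e-06) and in bhlh58/151-KO (-2.12 for A and -2.03 for G, limma adjusted p = 3.06e-08 and 2.87e-07). In bHLH58-OE the A member fell (-0.70, limma adjusted p = 0.0108), and the G member was not called (-0.42, limma adjusted p = 0.216). Both fell in bHLH151-OE (-1.22 for A, limma adjusted p = 7.46e-06, and -0.77 for G, limma adjusted p = 0.00337).

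Other large changes had no neighbour of the other letter among the IDs that the rule named. PAxG05Ag0135100 had 0.0493, 0.0742 and 0.430 FPKM in bhlh151-KO, against 38.6, 34.3 and 36.9 FPKM in WT (log2 fold change -5.00, SE 0.09, limma adjusted p = 1.99e-17). In the other 4 lines it averaged 27.9 to 33.8 FPKM, so of the 5 lines only bhlh151-KO came close to 0. PAxG17Gg0168600 had 4.07, 4.13 and 3.41 FPKM in bhlh151-KO, 10.9, 10.9 and 10.6 FPKM in bhlh58/151-KO and 8.58, 9.93 and 9.60 FPKM in bHLH151-OE, against 74.4, 76.2 and 76.2 FPKM in WT. It fell in all 5 lines, by 2.16 (bHLH58-OE) to 3.98 (bhlh151-KO) on the log2 scale (SE 0.09, limma adjusted p at most 2.89e-11).

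PAxG11Ag0028900, the A member named for a fall in bhlh58/151-KO, followed an order of groups like that of PAxG11Gg0025800 in the silent stretch. It had 1.73, 2.20 and 0.859 FPKM in bhlh58/151-KO, against 17.6, 22.5 and 21.3 FPKM in WT (log2 fold change -3.08, SE 0.15, limma adjusted p = 2.42e-10). In bHLH151-OE it had 73.5, 72.4 and 83.7 FPKM, all above WT (log2 fold change 1.86, SE 0.15, limma adjusted p = 2.74e-08). It averaged 3.19 ± 0.560 FPKM in bhlh58-KO, 2.80 ± 0.124 in bhlh151-KO and 3.67 ± 0.448 in bHLH58-OE. Both IDs of number 11 were therefore low in 4 lines and high in bHLH151-OE, with WT between. All these comparisons share the WT libraries.

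In bHLH58-OE the rises named were PAxG17Ag0214100 and PAxG10Gg0119200. PAxG17Ag0214100 had 29.9, 53.2 and 47.8 FPKM in bHLH58-OE, against 11.2, 12.9 and 10.6 FPKM in WT (log2 fold change 1.79, SE 0.36, limma adjusted p = 0.0118). It rose in the other 4 lines too. PAxG10Gg0119200 had 7.15, 7.47 and 5.37 FPKM in bHLH58-OE, against 0.308, 0.151 and 0.335 FPKM in WT (log2 fold change 2.59, SE 0.15, limma adjusted p = 1.99e-09). It was as high in bhlh58-KO, at 6.28, 7.40 and 7.79 FPKM, so knockout and overexpression of bHLH58 both lay above WT. Rises were also called in bhlh151-KO (1.70, limma adjusted p = 1.50e-08) and bhlh58/151-KO (0.66, limma adjusted p = 0.00236). In bHLH151-OE it was not called (0.35, limma adjusted p = 0.0809). The A member named for a fall, PAxG14Ag0026800, had 2.72, 4.49 and 2.17 FPKM in bHLH58-OE, against 19.5, 20.9 and 19.3 FPKM in WT (log2 fold change -2.38, SE 0.15, limma adjusted p = 6.43e-09). It moved the other way in bhlh58-KO, with 31.6, 36.9 and 34.2 FPKM (log2 fold change 0.75, limma adjusted p = 0.00101). Falls were also called in bhlh151-KO (-0.81, limma adjusted p = 0.000142), bhlh58/151-KO (-0.62, limma adjusted p = 0.0036) and bHLH151-OE (-1.10, limma adjusted p = 1.2e-05).

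In bHLH151-OE the rule named PAxG17Ag0006600 and PAxG06Gg0048600 for rises. PAxG17Ag0006600 had 15.5, 11.5 and 12.6 FPKM in bHLH151-OE, against 2.88, 0.989 and 1.60 FPKM in WT (log2 fold change 2.38, SE 0.22, limma adjusted p = 2.06e-07). Its rise was larger in bhlh151-KO (3.24, limma adjusted p = 9.62e-10). It also rose in bhlh58-KO (2.11, limma adjusted p = 2.66e-06) and bhlh58/151-KO (1.94, limma adjusted p = 4.11e-06), and was not called in bHLH58-OE (-0.09, limma adjusted p = 0.887). On the G side PAxG06Gg0048600 had 62.5, 60.3 and 58.2 FPKM in bHLH151-OE, against 9.29, 11.1 and 8.73 FPKM in WT (log2 fold change 2.52, SE 0.11, limma adjusted p = 1.61e-11). It stood equally high in bhlh151-KO, at 62.9, 59.2 and 61.9 FPKM. Smaller rises were called in bhlh58-KO (0.71, limma adjusted p = 0.000142) and bhlh58/151-KO (1.16, limma adjusted p = 5.25e-07). In bHLH58-OE it was not called (0.37, limma adjusted p = 0.0647). PAxG18Ag0012800 was the A member named for a fall, with 4.06, 4.92 and 6.12 FPKM in bHLH151-OE, against 28.1, 28.9 and 29.9 FPKM in WT (log2 fold change -2.33, SE 0.16, limma adjusted p = 2.78e-09). For this ID too the value in bhlh151-KO was low, 3.00, 4.79 and 2.91 FPKM. Falls were also called in bhlh58-KO (-1.67, limma adjusted p = 6.96e-07), bhlh58/151-KO (-1.64, limma adjusted p = 5.17e-07) and bHLH58-OE (-0.96, limma adjusted p = 0.000952).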

How the data were processed

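The deposited table holds FPKM values per gene ID and library, made by the authors. Aligner, genome build, annotation and the way shared reads were assigned: not given in the sources used here. Only the submitters' processing notes name a tool, DESeq2, without a version or role. Subgenome and chromosome number were read from the IDs. Members and lists were chosen with earlier results of these data known.

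Values were transformed as log2(FPKM + 1), a scale that understates changes of low genes. Over the 40951 IDs that reached 1 FPKM in 3 or more libraries, 1 linear model was fitted (limma 3.58.1, R 4.3.3, with trend and robust options), which had 6 group means and left 12 residual degrees of freedom. Shares, medians and blocks were computed with pandas 2.3.3 in Python 3.11.15. Whole-read steps were searched under 0.3 FPKM in 153 library pairs; a bin of 0.02 log2 held at most 1.58% of ratios, so depth could not be recovered. All columns of values were used.

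The named IDs are, per line, the A and the G member with the largest rise and fall among those called at 2-fold or more, with libraries not overlapping with WT, at least 5 FPKM in the higher group and no library at 0 in the lower group, plus the highest A and G member over all groups. Results were recomputed with a pseudocount of 0.1, without the filter, with a mean of at least 5 FPKM, under 3 scalings, with a replicate block, without the 100 highest members of each subgenome and without each library. Leaving out chromosome numbers 11 and 12, or the highest member of 8G, was chosen after seeing the data. The limma step was tested on simulated data.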

Additional observations from a re-analysis of the deposited data

How the results depend on the processing

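Named IDs kept their direction and call in all 180 alternatives run for them. These were a pseudocount of 0.1, median-of-ratios scaling, a replicate block and single libraries left out. The IDs were picked from the same data for large changes not overlapping with WT, so this outcome was likely beforehand. Requiring a mean of at least 5 FPKM left 9364 A and 9040 G members to test, and calls were then 5339 A and 5276 G in bhlh151-KO, 3649 A and 3593 G in bhlh58/151-KO and 3865 A and 3790 G in bHLH151-OE. Leaving out 1 library at a time gave 635 to 1057 A and 594 to 1061 G calls in bHLH58-OE. Replicate numbers did not pair libraries (correlation of same-numbered deviations with WT -0.0949 to 0.0716, own number best for 6 of 15), and with a replicate block bHLH58-OE had 988 A and 977 G calls. The median log2 change of A minus G was -0.005418 in bhlh58-KO (mean of at least 5 FPKM), 0.00578 in bhlh151-KO (pseudocount 0.1), and -0.001346 (no filter), 0.002523 (mean of at least 5 FPKM) and 0.002944 (quantile normalization) in bHLH151-OE; without single libraries it ran from -0.002646 to 0.003576 in bhlh58-KO, 0.0003791 to 0.009328 in bhlh151-KO, -0.0003245 to 0.002448 in bhlh58/151-KO and 0.001065 to 0.005962 in bHLH151-OE, so its sign is not settled in bhlh58-KO, bhlh58/151-KO or bHLH151-OE. The percent of FPKM from A, 50.64 over all libraries, was 50.81 without the 100 highest of each subgenome, 50.23 without number 11, 50.22 without number 12 and 49.78 without 11 and 12. The median FPKM of A minus G, 0.05874, was 0.1631 with no filter, 0.02907 with a mean of at least 5 FPKM, 0.07891 without number 11, 0.002903 without number 12 and 0.0207 without 11 and 12. Of 80 alternatives for the chromosome medians, 27 moved by more than the library spread and 4 changed sign; of 55 for differences from WT, 11 moved and 8 changed sign. Without PAxG08Gg0109500 the difference of the 8G share from WT moved in 4 of 5 lines and changed sign in 2. The cause was not tested.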

Other observations

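The table also lists 188 mitochondrial and 19 plastid IDs, of which 6 and 7 passed the filter in that order. Their summed FPKM ran from 24.5 to 71.3 per library for mitochondrial IDs and from 12.7 to 24.0 for plastid IDs. They were in no comparison of subgenomes. Of 4823 NewGene IDs, 2726 passed the filter; they carry no letter and supplied 6.81 to 7.10% of the FPKM of all tested IDs.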
